A study of Mus musculus with 27 samples.

Results

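The genes of MHC class II antigen presentation were followed through a bulk RNA sequencing study of whole mouse lung. The 9 members were found by their symbols among the 56941 genes of the deposited tables: H2-Aa, H2-Ab1, H2-Eb1, Cd74, Ciita, H2-DMa, H2-DMb1, H2-Oa and H2-Ob. All 9 were matched once, and 9 of 9 passed the filter on low counts that left 24629 genes for testing. The 27 lungs came from male wild-type C57Bl/6J mice of 7 to 8 weeks, and no transgene or deletion is named in the labels. Each mouse received 5 oropharyngeal instillations of 50 µl, holding 10 µg of an allergen, house dust mite (HDM) extract, or phosphate-buffered saline (PBS) alone. A day after the fifth, 100 µl of saline (SAL) or of combustion products (CP) of burned paper, plastic and plywood at 2 mg per ml was instilled, and the lungs were taken 24 h later. The groups were PBS_SAL (7 libraries), PBS_CP (7), HDM_SAL (6) and HDM_CP (7), and libraries carry their group and the number from the label. All 4 groups were instilled in the same way, so no group shows an untouched lung, and the labels mention no pooling of mice.

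MHC class II molecules carry peptides from proteins taken up by a cell to its surface, where CD4+ T cells read them. The alpha and beta chains assemble in the endoplasmic reticulum with the invariant chain, which fills the peptide groove until proteases in the endosome cut it down to a short remnant. The DM heterodimer removes that remnant and edits the peptides, the DO heterodimer restrains DM, and the transactivator CIITA switches on most of the genes of the pathway. In the lung, dendritic cells, B cells and several kinds of macrophage are known carriers of class II, and alveolar type 2 cells also express it.

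On the GRCm39 build of the deposited tables, 7 members lay within 224 kb of chromosome 17, between 34311314 and 34535648. They were H2-Oa and H2-Ob, the chains of DO; H2-DMa and H2-DMb1, chains of DM; H2-Ab1 and H2-Aa, the beta and alpha chains of I-A; and H2-Eb1, the beta chain of I-E. Ciita lay on chromosome 16 (10297923 to 10346282). The use of strand in the counting is not stated in the sources used here, which leaves overlapping genes on opposite strands unseparated. H2-DMa overlaps Brd2, a widely expressed gene on the other strand with a mean of 281 counts per M (CPM; M, mega), and Ciita overlaps Dexi at 15.3 CPM. H2-DMb1 has a close paralog, H2-DMb2, with which it may share reads.

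CIITA does not bind DNA itself. It is recruited by RFX and NF-Y proteins that sit on the X box and the Y box of class II promoters. Promoter windows of 300 bases (250 before to 50 after the start site) were taken from RefSeq on the GRCm38.p6 build, which held 7 windows of 6 members. They are shown because 7 of the 9 members rose together in the comparison that leads the results, and the DO chains were not among them. The letters searched, on both strands, were ACNGATG for the core of the X box and CCAAT for the Y box, which do not overlap each other. The 250 bases before the start site are printed 5′ to 3′ on the gene's own strand for 5 members, with matches in capitals.
H2-Eb1: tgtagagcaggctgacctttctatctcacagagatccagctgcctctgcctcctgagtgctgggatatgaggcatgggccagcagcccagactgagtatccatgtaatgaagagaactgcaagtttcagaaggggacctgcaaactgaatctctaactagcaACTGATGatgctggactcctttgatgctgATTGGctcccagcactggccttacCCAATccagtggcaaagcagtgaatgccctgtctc
H2-DMb1: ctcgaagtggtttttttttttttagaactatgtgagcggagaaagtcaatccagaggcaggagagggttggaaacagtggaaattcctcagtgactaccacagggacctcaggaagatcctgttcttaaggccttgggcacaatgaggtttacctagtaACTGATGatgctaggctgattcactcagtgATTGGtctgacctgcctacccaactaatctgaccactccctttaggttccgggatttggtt
H2-Aa: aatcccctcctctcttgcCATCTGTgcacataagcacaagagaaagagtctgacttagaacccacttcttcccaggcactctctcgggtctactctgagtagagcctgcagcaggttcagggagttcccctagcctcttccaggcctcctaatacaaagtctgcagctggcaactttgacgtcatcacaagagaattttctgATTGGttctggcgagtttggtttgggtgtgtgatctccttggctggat
H2-Oa: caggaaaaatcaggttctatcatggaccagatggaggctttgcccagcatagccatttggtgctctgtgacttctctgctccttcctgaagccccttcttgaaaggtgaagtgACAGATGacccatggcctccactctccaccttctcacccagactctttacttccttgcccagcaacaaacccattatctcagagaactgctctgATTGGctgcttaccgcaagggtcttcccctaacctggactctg
H2-Ob: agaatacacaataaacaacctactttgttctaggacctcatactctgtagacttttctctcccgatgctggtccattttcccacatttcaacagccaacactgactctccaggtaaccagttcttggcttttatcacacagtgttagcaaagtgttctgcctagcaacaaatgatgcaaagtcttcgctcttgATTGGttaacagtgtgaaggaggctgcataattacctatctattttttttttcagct
In that order the printed stretches are chr17:34305617-34305866 on the plus strand, chr17:34152941-34153190 (plus), chr17:34287824-34288073 (minus), chr17:34092129-34092378 (plus) and chr17:34238655-34238904 (plus). The X box letters were matched in H2-Eb1, H2-DMb1 and H2-Oa at 88, 91 and 137 bases before the start site, and in H2-Aa in the reverse orientation at 232 bases before it. That is 4 of the 7 member windows, while 9.85% of all 32851 promoter windows of the same length held such a match. The Y box letters occurred in 6 of the 7 windows and in 37.4% of all promoters, and both occurred in 4 of the 7 and in 3.65%. No spacing or orientation was required for these counts. The Y box letters lay 59 and 35 bases before the start site in H2-Eb1, 61 in H2-DMb1, 43 in H2-Oa and 48 in H2-Aa. Of exact matches, H2-Ob held the Y box letters alone, as ATTGG. Before them its window holds acaaatg, 1 letter off the X box core. Such near matches were not counted in any window and are not listed for the other members. By letters alone H2-Oa, whose level did not pass the test in any comparison, carried both matches, as did H2-Aa, H2-Eb1 and H2-DMb1. In H2-Oa and H2-Aa the X and Y matches lay farther apart than in H2-Eb1 and H2-DMb1, and in H2-Aa the X match is reversed. Whether the H2-Oa and H2-Aa matches act as X boxes was not tested, and the 4 of the 7 windows include both. The 2 windows of H2-DMa, which are not printed, held no X box letters, and 1 of them held the Y box letters. They begin at 34122582 and 34125268 on GRCm38.p6, and H2-DMa overlaps Brd2 on the other strand. Which start site of H2-DMa is used in lung was not tested, and the gene was not searched outside these 2 windows. These windows therefore do not show that H2-DMa lacks an X box. A match describes letters only, and these windows were not assayed for binding.

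Library totals ran from 56.35 to 84.5 M estimated counts by the deposited tables, while 20 M read pairs were planned and the reads obtained are not given in the sources used here. Mitochondrial genes held 2.08% to 3.86% of the counts, with the 3 highest shares in HDM_SAL libraries 54, 50 and 99. None of the dendritic cell, B cell, T cell and macrophage marker lists had a gene at 0 in all libraries of a group. In whole lung, more cells of a type and more RNA per cell cannot be told apart.

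Per length, Cd74 was the most abundant member in every library. Its mean was 1588 ± 115 transcripts per M (TPM; SD, n = 7) in PBS_SAL. The I-A chains followed, with H2-Aa at 719 ± 46.0 TPM and H2-Ab1 at 675 ± 73.1 TPM, and then H2-Eb1 at 506 ± 50.2 TPM. The ranges of the I-A chains overlapped, although H2-Aa was above H2-Ab1 in 6 of the 7 PBS_SAL libraries. H2-DMb1, H2-DMa and H2-Ob formed a second tier at 82.2 ± 7.49, 80.1 ± 7.88 and 79.9 ± 10.4 TPM, with overlapping ranges. Ciita (21.8 ± 2.25 TPM) and H2-Oa (15.2 ± 1.64 TPM) were lowest, and their ranges did not overlap in PBS_SAL. The tiers stood in the same order in the other 3 groups, while places within a tier changed. In HDM_CP, H2-Ab1 (1132 ± 379 TPM) stood before H2-Aa (1085 ± 350 TPM), and H2-Ob (74.6 ± 23.5 TPM) was below H2-DMa (110 ± 35.3 TPM) in all 7 libraries.

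**Figure D1:**
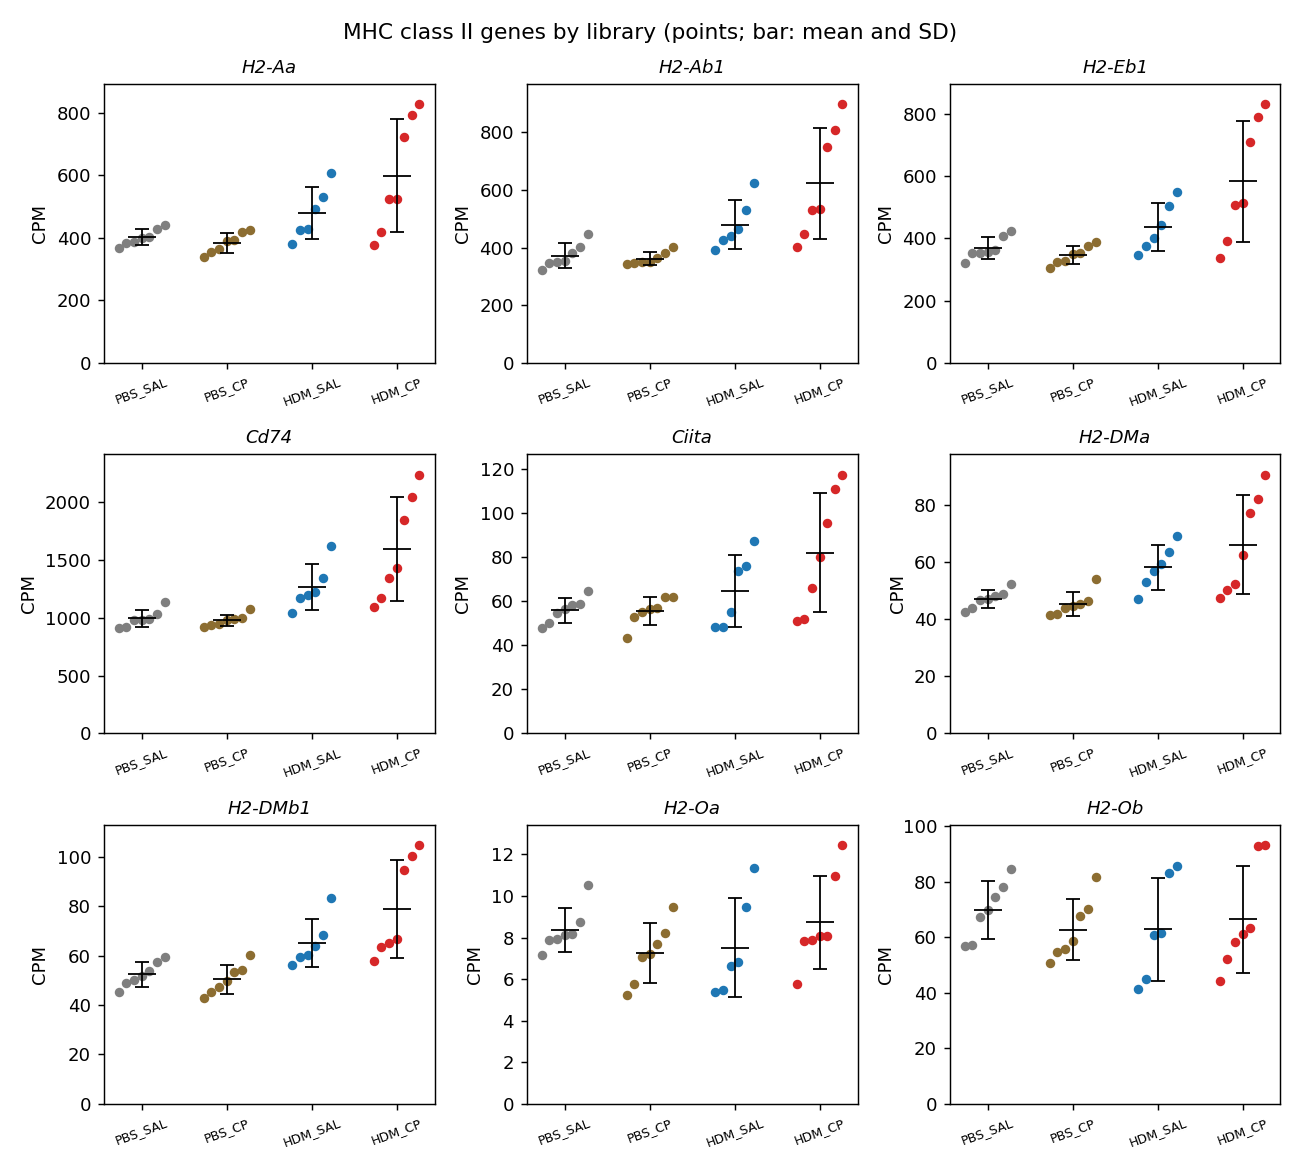
Level of each of the 9 members in CPM (linear axes from 0, each panel with its own scale) in the 4 groups. Points are libraries sorted by value, and bars give the mean and SD. The PBS groups lie close together, HDM_CP spreads widest for the members that passed the test, and for H2-Oa and H2-Ob all 4 groups overlap.

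The comparison of HDM_CP with PBS_CP asks what allergen did in lungs that had also received combustion products. In it 7 of the 9 members rose: the 3 chains of I-A and I-E, the invariant chain, the transactivator and both DM chains. The rises lay between 1.46-fold and 1.72-fold. The chains of DO, H2-Oa and H2-Ob, did not pass the test. A gene was called where edgeR's quasi-likelihood test, adjusted over all 24629 genes, fell under 0.05, and in this comparison 5.6% of all genes tested were called higher, 2.27% lower and 7.87% in either direction. The median log2 fold change was 0.64 over the 9 members and 0.0019 over all genes tested.

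Cd74, the invariant chain (GRCm39, chromosome 18, 60936920 to 60945724), ran from 923 to 1074 CPM in PBS_CP, with a median of 977, and from 1095 to 2239 in HDM_CP, with a median of 1435. Every HDM_CP library was above every PBS_CP library, by a narrow margin at the low end. The log2 fold change was 0.71 ± 0.12 (SE), a 1.63-fold rise, with an edgeR adjusted p of 0.00047. H2-Ab1 ran from 343 to 400 CPM (median 348) in PBS_CP and from 403 to 897 (median 532) in HDM_CP. Its groups did not overlap either, and it had the largest rise of the 9, by 0.78 ± 0.14 on the log2 scale (edgeR adjusted p = 0.00063). Cd74 and H2-Ab1 were the 2 members whose groups did not overlap, a pattern seen upward in 1.41% of all genes tested.

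H2-Eb1 ran from 304 to 390 CPM in PBS_CP (median 351) and from 337 to 832 in HDM_CP (median 515). Library 96 was the only HDM_CP library within the PBS_CP range, and the rise was 0.75 ± 0.15 on the log2 scale (edgeR adjusted p = 0.0021). H2-Aa, the partner of H2-Ab1, had 338 to 424 CPM (median 390) against 378 to 827 (median 525), a rise of 0.64 ± 0.13 (edgeR adjusted p = 0.0030). For H2-Aa 5 of the 7 HDM_CP libraries were above all of PBS_CP. C57BL/6 mice are known to make no I-E alpha chain, and H2-Ea was below the filter on low counts, so the I-E beta chain was measured here without its partner.

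The DM chains, which load peptides in the endosome, both rose. H2-DMb1 had 42.8 to 60.04 CPM (median 49.5) in PBS_CP and 57.8 to 105 (median 66.6) in HDM_CP, and rose by 0.65 ± 0.12 on the log2 scale (edgeR adjusted p = 0.00092). H2-DMa had 41.5 to 54.0 CPM (median 44.7) against 47.3 to 90.5 (median 62.3), and rose by 0.54 ± 0.12 (edgeR adjusted p = 0.0034). Brd2, which overlaps H2-DMa on the other strand, had a log2 fold change of -0.05 ± 0.03.

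Ciita had 43.2 to 62.0 CPM (median 56.4) in PBS_CP and 51.0 to 117 (median 80.0) in HDM_CP, with 5 of 7 HDM_CP libraries above all of PBS_CP. It rose by 0.56 ± 0.17 on the log2 scale (edgeR adjusted p = 0.034). This was the least secure of the 7 calls. It was lost when HDM_CP library 49, 67 or 98 or PBS_CP library 57, 58, 75, 101 or 102 was left out, with edgeR adjusted p from 0.052 to 0.113, and it held in 27 of the 41 alternative settings. Its log2 fold change stayed between 0.45 and 0.65 in those settings.

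The DO chains did not pass the test. H2-Ob had 50.5 to 81.7 CPM (median 58.4) in PBS_CP and 44.0 to 93.0 (median 61.2) in HDM_CP, so the HDM_CP range enclosed the PBS_CP range. Its log2 fold change was 0.08 ± 0.17 (edgeR adjusted p = 0.86). H2-Oa had 5.25 to 9.48 CPM (median 7.21) against 5.75 to 12.4 (median 8.09), with a log2 fold change of 0.27 ± 0.17 (edgeR adjusted p = 0.385). Neither gene was called in any of the 7 comparisons.

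For the 7 members that rose, the SD was larger in HDM_CP than in any other group. Library 98 or 67 held the highest value of each of the 9 members, and library 49 the next after them for all but H2-Oa. These 3 libraries come from the 3 separate runs of library numbers (45 to 64, 66 to 81 and 96 to 105), which the labels do not call batches. At the low end, library 96 had the lowest HDM_CP value of the 7 members that rose, and library 97 that of H2-Oa and H2-Ob. Within each run of numbers, with 2 or 3 libraries a group, Cd74 was higher in HDM_CP than in PBS_CP, by 0.74, 0.70 and 0.61 on the log2 scale. H2-Ab1 was higher by 0.79, 0.82 and 0.65. Ciita was higher by 0.29, 0.72 and 0.56. For H2-Ob the same differences were -0.01, 0.29 and -0.08.

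**Figure D2:**
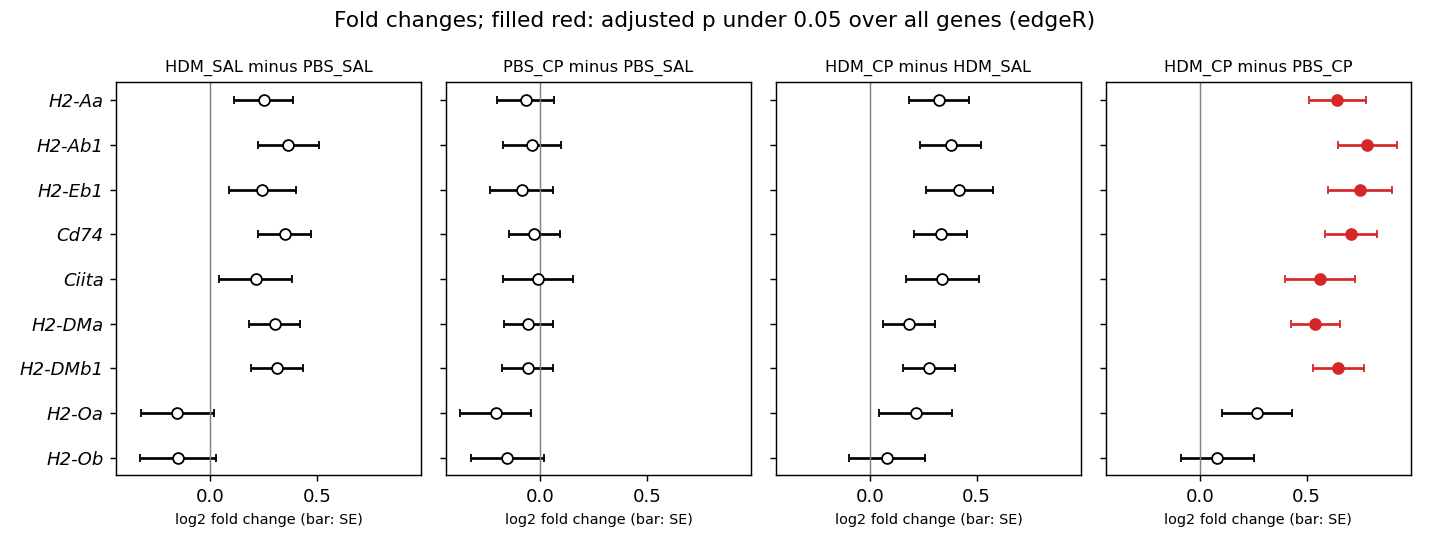
Log2 fold change (point) and standard error (bar) of the 9 members in the 4 pairwise comparisons, one panel each, on a shared axis. Filled red points passed the test (7 members, HDM_CP with PBS_CP), open points did not, and the points of HDM_SAL with PBS_SAL and of HDM_CP with HDM_SAL lie mostly to the right of 0.

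The comparison of HDM_SAL with PBS_SAL gives the effect of allergen without combustion products. No member passed the test there, where 3.19% of all genes tested were called higher, 2.25% lower and 5.44% in either direction. An unadjusted p under 0.05 was reached by 4 members, and DESeq2 and limma voom called 0 as well. Cd74 had 916 to 1136 CPM (median 985) in PBS_SAL and 1046 to 1621 (median 1212) in HDM_SAL, with 5 of 6 HDM_SAL libraries above all of PBS_SAL. Groups did not overlap, with HDM_SAL higher, for 0 members and for 1.17% of all genes tested. The log2 fold change of Cd74 was 0.35 ± 0.12 (edgeR adjusted p = 0.0998). H2-Ab1 was at 0.37 ± 0.14, H2-DMb1 at 0.31 ± 0.12 and H2-DMa at 0.30 ± 0.12, with edgeR adjusted p of 0.131, 0.137 and 0.139. When the fit held only these 2 groups, Cd74, H2-DMa and H2-DMb1 were called, with edgeR adjusted p of 0.032, 0.035 and 0.048. H2-Oa and H2-Ob had log2 fold changes of -0.15 ± 0.17 and -0.15 ± 0.18. The median over the 9 members was 0.25 on the log2 scale, against 0.013 over all genes tested. Without HDM_SAL libraries 54, 50 and 99, those with the highest mitochondrial shares, 3 HDM_SAL libraries were left, and 0 members and 34 genes in all were called in this comparison, against 1339 genes with them.

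Averaged over saline and combustion products, allergen raised 7 of the 9 members, where 9.2% of all genes tested were called higher, 6.98% lower and 16.2% in either direction. Cd74 rose by 0.53 ± 0.09 on the log2 scale (edgeR adjusted p = 9.9e-05) and H2-Ab1 by 0.58 ± 0.10 (edgeR adjusted p = 0.00017). H2-Eb1, H2-DMb1, H2-Aa and H2-DMa rose by 0.50, 0.48, 0.45 and 0.42, and Ciita by 0.39 ± 0.12 (edgeR adjusted p = 0.025). The Ciita call held in 34 of 40 alternative settings. It was lost without HDM_SAL library 52 or HDM_CP library 98, with an edgeR adjusted p of 0.051 in both cases, and without the 3 libraries of lowest total (edgeR adjusted p = 0.070). The other 3 losses were with TPM in place of counts, with limma adjusted p of 0.074 to 0.147. H2-Oa stood at 0.06 ± 0.12 and H2-Ob at -0.03 ± 0.12. This average shares its libraries with both allergen comparisons and is not a separate experiment.

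Combustion products alone moved none of the members past the test. In PBS_CP against PBS_SAL, where 0.00812% of all genes tested were called, the 9 log2 fold changes lay between -0.21 and -0.01 with a median of -0.06. None had an unadjusted p under 0.05, and DESeq2 and limma voom also called 0. Cd74 was at -0.03 ± 0.12, and its PBS_CP range of 923 to 1074 CPM lay inside that of PBS_SAL. Groups were apart upward for 0 members and for 0.0609% of all genes tested. The most negative values were those of H2-Oa (-0.21 ± 0.17) and H2-Ob (-0.15 ± 0.17).

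After allergen, combustion products came with higher means of all 9 members, none of them past the test. In HDM_CP against HDM_SAL 0.00406% of all genes tested were called, 1 gene in all, and 0 members were called by edgeR, DESeq2 or limma voom. The median log2 fold change of the members was 0.32, against -0.0015 over all genes tested, and 5 members had an unadjusted p under 0.05. H2-Eb1 had the largest difference at 0.42 ± 0.16 (edgeR adjusted p = 0.348), with 346 to 550 CPM (median 422) in HDM_SAL and 337 to 832 (median 515) in HDM_CP. H2-Ab1 was at 0.38 ± 0.14 and Cd74 at 0.33 ± 0.13 (edgeR adjusted p = 0.351 for both), and Ciita at 0.34 ± 0.17 (edgeR adjusted p = 0.534). For each of the 7 members other than the DO chains, 3 of the 7 HDM_CP libraries exceeded every HDM_SAL library. Library 96 lay below every HDM_SAL library for H2-Aa and H2-Eb1, at 378 and 337 CPM against a lowest HDM_SAL value of 382 and 346, and the remaining libraries lay within the HDM_SAL range. Within the runs of library numbers Cd74 differed by 0.52, 0.30 and 0.01 on the log2 scale and H2-Ab1 by 0.56, 0.31 and 0.05, so both differences were close to 0 in the third run. H2-Aa and H2-DMa were at -0.03 and -0.02 in the third run, H2-Oa and H2-Ob at -0.29 and -0.14 in the second, which held 1 HDM_SAL library, and H2-Ob at -0.03 in the first. Groups were apart upward for 0 members and 0.106% of all genes tested.

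The interaction asks whether allergen and combustion products together differ from the sum of each alone on the log2 scale. It was positive for 9 of 9 members with a median of 0.36, against -0.0012 over all genes tested. No member passed, and 0% of all genes tested did by edgeR. H2-Eb1 was at 0.50 ± 0.22, H2-Oa at 0.42 ± 0.24 and H2-Ab1 at 0.42 ± 0.20. The unadjusted p was under 0.05 for 3 members, DESeq2 and limma voom called 0 members, and the smallest edgeR adjusted p of a member was 0.776. So the difference between the rises with and without combustion products was not resolved with these libraries. Averaged over allergen and PBS, combustion products gave member log2 fold changes of -0.04 to 0.17 and 0 calls by edgeR, DESeq2 and limma voom, with 0 members at an unadjusted p under 0.05 and 0.0406% of all genes tested called higher, 0.00812% lower and 0.0487% in either direction.

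Ratios within a library compare the RNA of members over the whole lung, free of any scaling between libraries. They do not give a ratio within a cell. As given below, Pearson's r with the B cell markers was 0.943 for H2-Ob, while for H2-DMb1 it was 0.192. For 8 ratios of TPM in the 4 pairwise comparisons, 2 of 32 exact two-sided permutation tests passed after Benjamini-Hochberg adjustment over the 32. The ratio of H2-Ob to H2-DMb1, a DO chain to a DM chain, was 0.650 to 1.197 (median 0.889) in PBS_CP and 0.484 to 0.664 (median 0.653) in HDM_CP. All HDM_CP libraries sat at or below 0.664, and PBS_CP library 75, at 0.650, was the only one of its group that low. The mean ratio fell by 0.59 on the log2 scale (exact permutation p = 0.0029, adjusted p = 0.0466). In the same comparison H2-DMb1 rose by 0.65 and H2-Ob was at 0.08, so the fall is no finding separate from that rise. In HDM_SAL against PBS_SAL the ratio of H2-Ob to H2-DMb1 was 0.502 to 0.989 (median 0.634) against 0.780 to 1.24 (median 1.01). That difference of -0.52 on the log2 scale did not pass (exact permutation p = 0.023, adjusted p = 0.107).

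The ratio of the other chains, H2-Oa to H2-DMa, was 0.164 to 0.226 in PBS_SAL and 0.1005 to 0.192 in HDM_SAL, with 4 of 6 HDM_SAL libraries below all of PBS_SAL. The difference was -0.52 on the log2 scale and did not pass (exact permutation p = 0.010, adjusted p = 0.067). The second ratio that passed was that of H2-DMa to H2-Ab1, 0.109 to 0.122 in HDM_SAL and 0.0903 to 0.114 in HDM_CP. It fell by 0.24 on the log2 scale (exact permutation p = 0.0029, adjusted p = 0.0466). In the same comparison H2-Ab1 was at 0.38 and H2-DMa at 0.18 on the log2 scale, and neither was called. CPM and TPM of H2-DMa did not order all libraries alike. HDM_SAL library 50 had 56.7 CPM and 88.0 TPM, and HDM_SAL library 100 had 52.9 CPM and 95.0 TPM. Cd74 to H2-Ab1 had group medians of 2.20 to 2.35 and H2-Eb1 to H2-Ab1 of 0.709 to 0.755, and neither had a difference past the test.

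Neither ratio call was secure. Both were lost when any 1 of HDM_CP libraries 49, 66, 67, 96, 97 and 98, or of HDM_SAL libraries 50, 54, 72, 99 and 100, was left out, with adjusted p of the exact permutation tests from 0.052 to 0.084. The HDM_SAL libraries are no part of H2-Ob to H2-DMb1 in HDM_CP against PBS_CP, so its unadjusted p does not depend on them. Without an HDM_SAL library that call was lost only through the adjustment shared by all ratio tests. Leaving out HDM_SAL library 52 raised the number of passing ratio tests to 8, and leaving out HDM_CP library 45 raised it to 4. On log2 CPM in place of TPM 4 tests passed, and H2-DMa to H2-Ab1 in HDM_CP against HDM_SAL was not among them (adjusted p = 0.062). The difference of H2-Ob to H2-DMb1 in HDM_CP against PBS_CP lay between -0.67 and -0.52 on the log2 scale in all 29 settings tried, and it passed in 18.

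**Figure D3:**
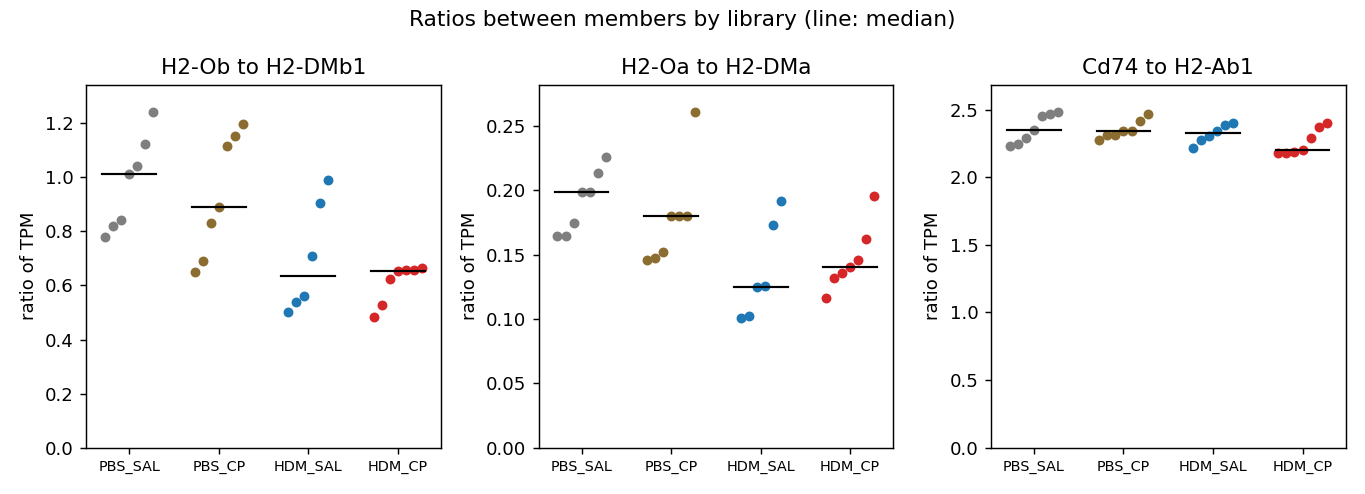
Ratio of TPM within each library (points) for H2-Ob to H2-DMb1, H2-Oa to H2-DMa and Cd74 to H2-Ab1 in the 4 groups, with the group median as a line and linear axes from 0. The DO to DM ratios sit lower in the HDM groups with overlap, while Cd74 to H2-Ab1 stays near its group medians of 2.20 to 2.35.

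Pooled over the 4 groups, the members also varied together between mice of the same group. Each library's log2 CPM was taken as a deviation from its group mean, so differences between groups do not enter, and p-values came from 100000 permutations within groups (the smallest they can give is 1e-05). Among the 7 members other than DO, Pearson's r over the 27 libraries ran from 0.673 to 0.990 in 21 pairs, and Spearman's rho from 0.611 to 0.983. H2-Ab1 and Cd74, on different chromosomes, had r = 0.986 and rho = 0.943. The DO chains went with each other at r = 0.875 and rho = 0.819. Between a DO chain and the other 7, r was 0.387 to 0.691 in 14 pairs. Of all 36 pairs, 34 passed a Benjamini-Hochberg adjustment over the 36 (permutation test of r), the exceptions being H2-DMb1 with H2-Oa and with H2-Ob.

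Within single groups, r between H2-Ob and H2-Ab1 was -0.05 in PBS_SAL, -0.06 in PBS_CP, 0.433 in HDM_SAL and 0.900 in HDM_CP, over 6 or 7 libraries each, and these values were not tested against each other. For Ciita with H2-Ab1 they were -0.04, 0.10, 0.676 and 0.912. H2-Ab1 with Cd74 had 0.957, 0.893, 0.983 and 0.996. When the 2 libraries farthest from the median of the first gene were left out, the lowest r among the 7 members other than DO was 0.593, and that of H2-Oa with H2-Ob was 0.846. Libraries share depth and scaling, which enter all of these values. Deviations were not scaled per group, so groups with a wider spread weigh more in the pooled r. For H2-Ab1 the SD was 192 CPM in HDM_CP, 84.4 in HDM_SAL, 42.6 in PBS_SAL and 21.6 in PBS_CP. The relations to cell type markers below are given pooled only.

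**Figure D4:**
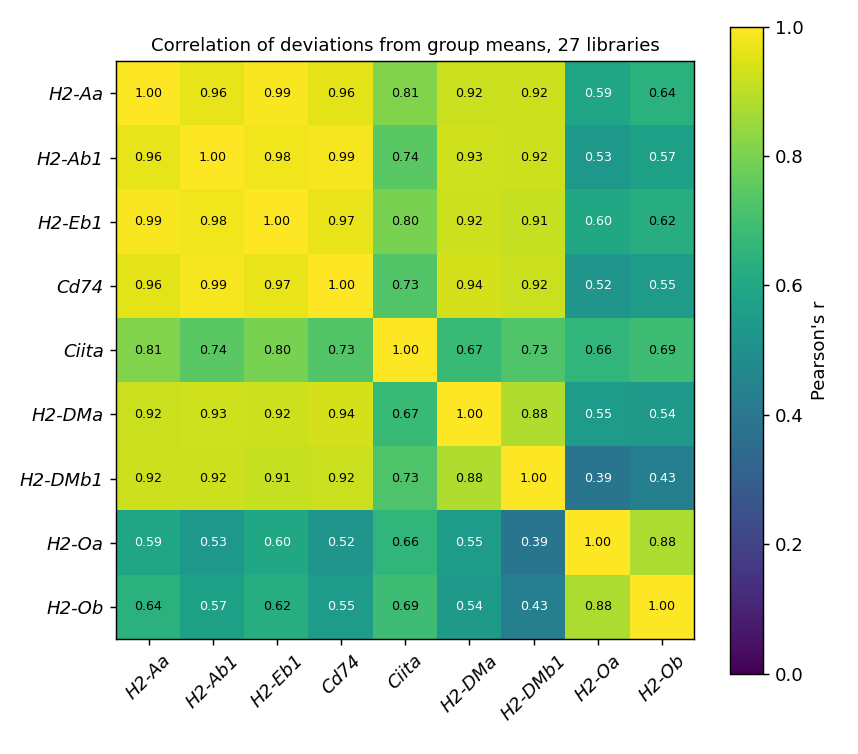
Pearson's r between members over 27 libraries, as deviations of log2 CPM from the group mean, on a color scale from 0 to 1. Values of 0.67 to 0.99 fill the block of 7 members, H2-Oa with H2-Ob has 0.88, and the values between them and the other 7 run from 0.39 to 0.69.

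Marker lists of cell types were set beside the members in the same way, as the mean log2 CPM of a list's genes, over 117 relations (9 members and 13 lists). H2-Ab1 went with the 12 conventional dendritic cell markers at r = 0.914 and rho = 0.884 (permutation test, adjusted p = 0.00017 and 0.00047), and r was 0.882 without the 2 farthest libraries. With the 12 monocyte and interstitial macrophage markers H2-Ab1 had r = 0.795 and rho = 0.774. With the 12 B cell markers it had r = 0.338 and rho = 0.295 (permutation test, adjusted p = 0.23 and 0.32). H2-Ab1 also had r = 0.607 and rho = 0.528 with the plasma cell markers (permutation test, adjusted p = 0.0059 and 0.041). With the T cell markers it had r = 0.499 and rho = 0.506 (permutation test, adjusted p = 0.044 and 0.057). H2-Ob had r = 0.943 and rho = 0.943 for the B cell markers (permutation test, adjusted p = 0.00017 and 0.00039). For the conventional dendritic cell markers H2-Ob had r = 0.496 and rho = 0.405 (permutation test, adjusted p = 0.074 and 0.16). For the plasmacytoid dendritic cell markers it had r = 0.552 and rho = 0.547 (permutation test, adjusted p = 0.026 and 0.039). H2-Oa went with the B cell markers at r = 0.855 and rho = 0.807, and H2-Ob and H2-Oa also went with the T cell markers, at r = 0.829 and 0.745. Ciita had r = 0.715 with the T cell, 0.706 with the plasmacytoid dendritic cell, 0.590 with the monocyte and interstitial macrophage, 0.578 with the conventional dendritic cell and 0.575 with the B cell markers. Of these 5 all but the conventional dendritic cell markers passed (permutation test, adjusted p = 0.056 for those). Between H2-Ab1 and the 10 alveolar type 2 markers r was 0.0016.

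**Figure D5:**
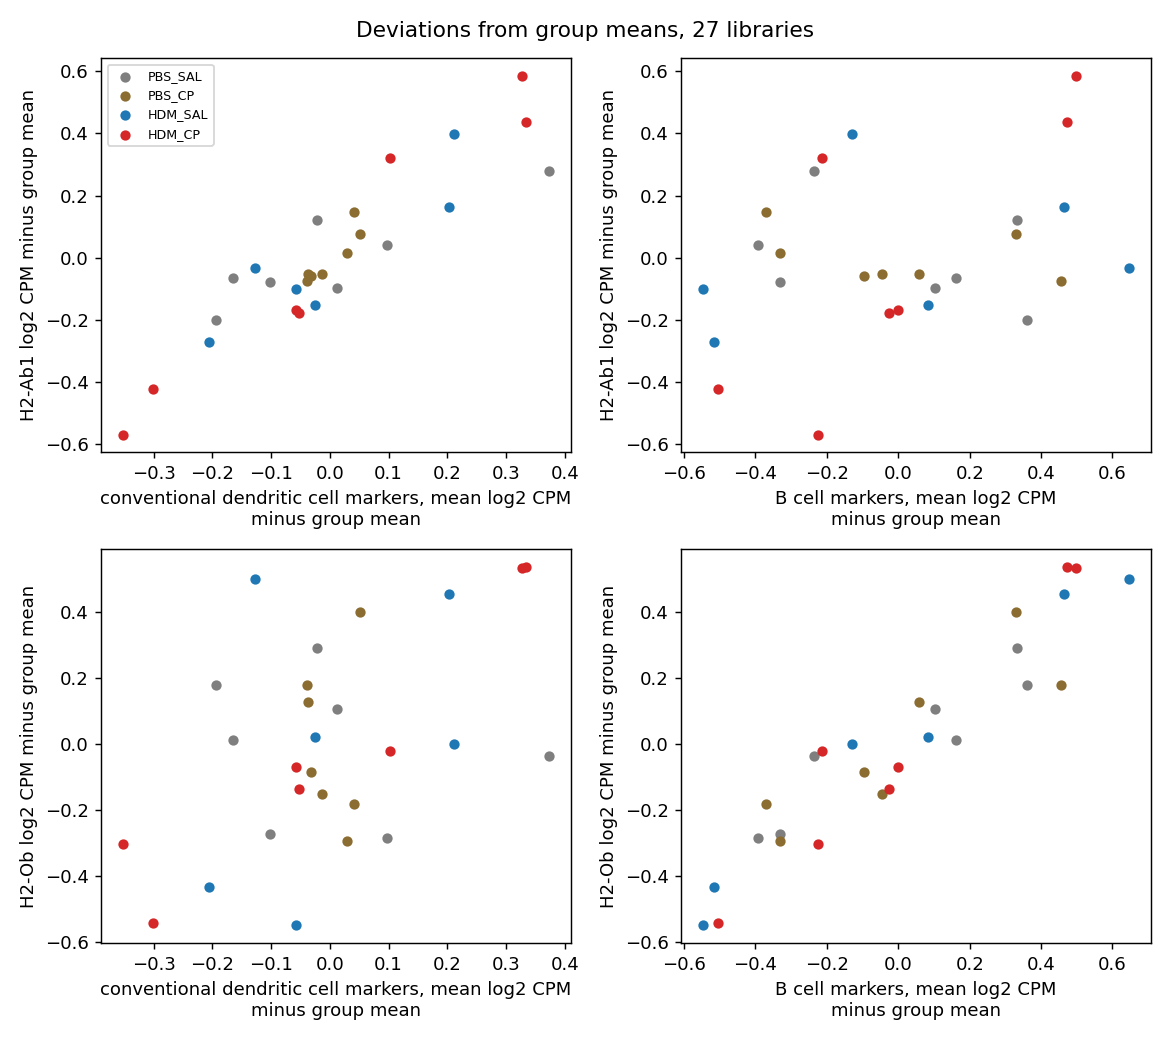
Deviation of H2-Ab1 (top) and H2-Ob (bottom) from the group mean, in log2 CPM, against that of the conventional dendritic cell markers (left) and the B cell markers (right), 1 point per library, colored by group. H2-Ab1 follows the dendritic cell markers (r = 0.914) and H2-Ob the B cell markers (r = 0.943), while the other panels scatter (r = 0.338 and 0.496).

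The same lists across groups gave values to set beside the rises. In HDM_CP against PBS_CP 9 of 12 monocyte and interstitial macrophage markers rose, with a median log2 fold change of 0.91, and their summed level was 4130 to 4737 CPM in PBS_CP and 4063 to 5898 in HDM_CP. Of the 12 conventional dendritic cell markers 6 rose (median 0.56), among them Flt3, the receptor for the dendritic cell growth factor, by 1.07 ± 0.16 and Batf3, a transcription factor of cross-presenting dendritic cells, by 1.73 ± 0.27. Positive values were seen for 9 of the 12. Clec9a, Zbtb46 and Ccr7 were at -0.15 ± 0.09, -0.13 ± 0.08 and -0.0011 ± 0.20, none past the test. The summed level of the 12 dendritic cell markers was 412 to 485 CPM in PBS_CP and 447 to 558 in HDM_CP. Of the 12 B cell markers 0 rose and 0 fell by edgeR (median -0.11, and 0 with an unadjusted p under 0.05), with a summed level of 410 to 745 CPM in PBS_CP and 349 to 694 in HDM_CP. Of the 8 T cell markers 0 passed by edgeR (median 0.0093, and 1 with an unadjusted p under 0.05). In HDM_SAL against PBS_SAL 5 of 12 dendritic cell markers rose (median 0.40), 4 of 12 monocyte and macrophage markers rose (median 0.29), and 0 of 12 B cell markers passed by edgeR (median -0.22, and 0 with an unadjusted p under 0.05). There 9 of the 12 dendritic cell markers were positive, while Clec9a, Zbtb46 and Ccr7 were at -0.20, -0.06 and -0.27, none past the test. Other lists moved as well. In HDM_CP against PBS_CP all 8 neutrophil markers had positive log2 fold changes (median 0.69), and Retnlg and Il1r2 rose, by 2.17 ± 0.32 and 1.31 ± 0.32. Their summed level was 65.3 to 136 CPM in PBS_CP and 74.8 to 284 in HDM_CP. Of the 10 alveolar macrophage markers, Chil3 rose by 2.96 ± 0.30 and Atp6v0d2 by 0.91 ± 0.24, Fabp1 fell by 1.46 ± 0.43 on the log2 scale, and the median was -0.04. Siglecf, Marco, Pparg, Car4 and Ear1 were at -0.04, -0.04, -0.07, -0.18 and -0.53, and none passed. Krt79 and Plet1, at 0.39 and 0.40, did not pass either. The summed level of the 10 was 442 to 683 CPM in PBS_CP and 1415 to 4085 in HDM_CP, a sum in which the most abundant genes weigh most. In HDM_CP against HDM_SAL, where 0 markers of any list passed by edgeR, 8 of 8 neutrophil markers (median 1.03) and 10 of 12 monocyte and interstitial macrophage markers (median 0.42) had positive log2 fold changes. An unadjusted p under 0.05 was reached by 7 of these 8 and 7 of these 12. Of the 12 conventional dendritic cell markers 10 were positive there (median 0.17). Of the 8 airway epithelium markers 0 were positive (median -0.35), and of the 7 heart muscle markers 0 (median -0.81). The part of these cell types in the members' levels was not tested.

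A list of genes most like a member, by r of the deviations over 27 libraries among 14825 genes, was made for H2-Ab1, Ciita and H2-Ob. For H2-Ab1 the 5 closest outside the members were Kcnn4 (r = 0.906), Colgalt1 (0.890), Slamf8 (0.889), Slamf7 (0.888) and Flt3 (0.880). For Ciita they were Myo5a (0.893), Dock10 (0.883), Nckap1l (0.882), Rassf2 (0.879) and Man2b1 (0.878). For H2-Ob the 5 closest included H2-DMb2 (0.964), the B cell surface gene Cd22 (0.947), Tbc1d10c (0.938) and Ighm (0.937), the heavy chain of IgM.

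H2-DMb2, the paralog of H2-DMb1, had 35.0 to 47.4 CPM in PBS_CP and 34.4 to 70.2 in HDM_CP. Its log2 fold change of 0.30 ± 0.15 did not pass (edgeR adjusted p = 0.287), while H2-DMb1 was at 0.65 ± 0.12. The I-E beta paralog H2-Eb2, at 4.83 to 9.37 CPM in PBS_CP and 5.08 to 16.6 in HDM_CP, was at 0.52 ± 0.26 (edgeR adjusted p = 0.247). Reads shared between paralogs would blur such a difference, and sharing was not tested.

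Upstream of the members, 5 of 11 genes of the interferon gamma to Ciita axis rose in HDM_CP against PBS_CP and 0 fell. Socs1, a feedback inhibitor of cytokine receptors, was 2.54 to 5.06 CPM in PBS_CP and 6.52 to 9.59 in HDM_CP, and rose by 1.05 ± 0.17 on the log2 scale. Spi1, which encodes the myeloid transcription factor PU.1, rose by 0.62 ± 0.11 and Irf4 by 0.76 ± 0.17. The interferon gamma receptor chain Ifngr2 rose by 0.35 ± 0.06 and the kinase gene Jak2 by 0.35 ± 0.08. Ifng itself was at -0.87 ± 0.35 (edgeR adjusted p = 0.139), with means of 0.604 ± 0.258 CPM (SD, n = 7) in PBS_CP and 0.331 ± 0.088 in HDM_CP. Of the 7 genes for the proteins on the X and Y boxes 0 passed, with Nfyc and Nfyb having the smallest edgeR adjusted p, 0.225 and 0.269, and 1 with an unadjusted p under 0.05. In HDM_SAL against PBS_SAL Rfx5, a subunit of the X box complex, rose by 0.27 ± 0.07 and Socs1 by 0.98 ± 0.17.

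Downstream, 5 of 8 genes that process antigen and the invariant chain rose in HDM_CP against PBS_CP. Ctss, the protease known for the last cut of the invariant chain, had 115 to 162 CPM in PBS_CP and 179 to 510 in HDM_CP. All HDM_CP libraries exceeded all PBS_CP libraries, and the rise was 1.18 ± 0.21 on the log2 scale (edgeR adjusted p = 0.00091). Ifi30, a thiol reductase of the endosome, had 50.7 to 64.7 CPM against 83.6 to 183, again without overlap, and rose by 1.09 ± 0.15. The lysosomal proteases Ctsb, Lgmn and Ctsd rose by 0.64, 0.55 and 0.46. Of the 3 genes for turnover of class II at the surface, Cd83, which protects it there, rose by 0.76 ± 0.20.

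At the contact with T cells, 3 of 6 costimulation genes rose in HDM_CP against PBS_CP. Pdcd1lg2, the PD-1 ligand 2, had 0.429 to 1.34 CPM in PBS_CP and 1.203 to 12.9 in HDM_CP, and rose by 2.46 ± 0.42 on the log2 scale. Cd86 rose by 0.56 ± 0.13 and Cd40 by 0.30 ± 0.07. Cd80, Cd274 and Icosl, at 0.45 ± 0.14, 0.16 ± 0.14 and -0.05 ± 0.11, did not pass. Of the 6 T cell genes that read class II or follow its reading, Lag3, a receptor that binds class II, rose by 1.07 ± 0.22 and Icos by 0.82 ± 0.22, while Cd4 was at 0.51 ± 0.19 (edgeR adjusted p = 0.109). Cd3g, Cd28 and Cd3e, at 0.14 ± 0.17, 0.02 ± 0.21 and -0.01 ± 0.20, did not pass either. Against the 5.6% of all genes called higher, these lists hold few genes each, and they were chosen with results of these data known.

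The class I presentation genes were set beside these. Of the 13 genes 6 rose in HDM_CP against PBS_CP, with a median log2 fold change of 0.17 for the list. The 4 with the smallest p were Pdia3 (0.23 ± 0.06), Calr (0.26 ± 0.07), Psmb8 (0.31 ± 0.09) and the class I heavy chain H2-D1 (0.32 ± 0.09). Between the outermost class II members on chromosome 17 lie 22 annotated genes, the members included. Of the 10 tested there that are no member, Psmb8 rose, 0 fell, and the median log2 fold change was 0.11. Tap1 and Tap2, the peptide transporters between H2-DMb1 and H2-Ob, were at 0.17 ± 0.10 and 0.07 ± 0.06.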

How the data were processed

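Whole-lung RNA was polyA selected and sequenced in pairs of 150 bases, with 20 M (mega) pairs planned per sample, per the labels' protocols. Per the submitters' processing notes, the tools were STAR and StringTie 2 and the build was GRCm39. The tables' name adds GENCODE M33. The version of STAR and the use of strand are not given in the sources used here. The deposited estimated counts are whole numbers per gene, and the deposited TPM values were scaled by the authors to a common total per library and carry no depth. The estimated counts sum to 56.35 to 84.5 M per library (14.1 to 21.1 M after division by 4). The reads behind them are not given in the sources used here, and the tests draw on the variation among mice.

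The estimated counts were rounded and tested with edgeR 4.0.16 (R 4.3.3): filterByExpr with a minimum count of 10, TMM scaling, 1 model of 4 group means over 27 libraries, robust quasi-likelihood F tests (two-sided) and Benjamini-Hochberg adjustment over all 24629 genes with a threshold of 0.05. The 310 rows without a symbol held 0.06% of the counts. CPM used TMM-scaled totals, and log2 CPM a prior count of 2. A standard error is the fold change over the root of F. Ratios used log2 TPM with no pseudocount, except for the alternatives on log2(TPM + 1) and log2(TPM + 0.1). Exact permutation tests were run in scipy 1.17.1. Promoter sequences are from RefSeq (GRCm38.p6), and their coordinates were not mixed with those of GRCm39. A longer form of the X box motif was searched first; it was replaced by the shorter core because its letters could not be printed here, after its matches had been seen. The longer form is rarer among all promoters and matched H2-Eb1, H2-DMb1 and H2-Oa, and the shorter core adds the H2-Aa match, so the shorter core is the less specific search. The fit was tested on simulated data.

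The members and gene lists were chosen with earlier results of these data known. Named genes were the 9 members, in each list the called genes (the 4 with the smallest p where over 5 were called, or the 2 with the smallest p where none was), the 5 genes most like H2-Ab1, Ciita and H2-Ob, and called neighbours on chromosome 17. Other genes were named after their values were seen. The alternatives were other scaling, DESeq2 1.42.0, limma 3.58.1, other filters, only the groups compared, number runs as a block, counts divided by 4, TPM in place of counts, and leaving out libraries. Leaving out the 3 libraries with the highest mitochondrial share was added after the data were seen. One gene among those most like H2-Ob is not reported here.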

Additional observations from a re-analysis of the deposited data

Results flagged for a closer look

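A library stood apart from the rest of its group, by the gap to its nearest neighbour relative to the group's range, in 5 of the 68 sets of values checked (9 members and 8 ratios in 4 groups), and chance gives about 1 in 20. H2-DMa was at 54.0 CPM in PBS_CP library 75, with the next library of the group at 46.2. HDM_SAL library 52 stood apart in the ratio of H2-Aa to H2-Ab1, at 1.06 with the next at 0.993, and in that of Ciita to H2-Ab1, at 0.0409 with the next at 0.0307. The ratio of H2-DMa to H2-Ab1 was 0.114 in HDM_CP library 45, with the next at 0.1003. The ratio of H2-Oa to H2-DMa was 0.261 in PBS_CP library 76, with the next at 0.180.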

How the results depend on the processing

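No fold change or ratio that passed its test reversed in any alternative. Of 2556 member fold changes recomputed, 2532 kept their call or their lack of one, 21 lost their call and 3 gained one. Of 960 recomputed ratios, 23 lost and 12 gained a call. The number of members called in HDM_SAL against PBS_SAL was 3 with only the groups compared and 0 otherwise. The number of ratio tests passed was 4 with log2 CPM in place of TPM, and 0 to 8 when 1 library was left out. All member losses in HDM_CP against PBS_CP were of Ciita, except for H2-DMa with limma on log2(TPM + 1) without a filter (adjusted p = 0.069). With TPM in place of counts Ciita had adjusted p of 0.085 to 0.167 by limma, and 0.088 by edgeR without the 3 libraries of lowest total. The run of library numbers as a block changed no count of members called. No paired analysis was possible because the groups share no replicate numbers. The counts are estimates, so the limit that depth sets on the lowest member, H2-Oa (5.25 to 12.4 CPM), was not computed.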
